A study of Mus musculus with 6 samples.

Results

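The Hox genes of the proximal colon were described by cluster, by paralogue number and by array. Members were the probe sets whose only gene symbol in the platform annotation was Hox, a cluster letter a to d and a number, which gave 37 probe sets for 31 genes of the 39 Hox genes in the RefSeq gene table, among 22626 probe sets without controls. Probe sets were matched by name, with no measured value in the rule. RNA came from the proximal part of the colon of 6 mice, 3 with genotype Mthfd1/+, in which 1 copy of Mthfd1 carries a gene trap obtained from BayGenomics, and 3 wild-type mice. All 6 mice were 8 weeks old, had eaten the AIN-93G control diet for 5 weeks from weaning and received no other treatment. Strain, sex and the site of the trap are unknown here. Each array held 1 animal.

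Hox proteins are homeodomain transcription factors that give cells their position along the head-to-tail axis. Their genes lie in 4 clusters, and the order of genes along a cluster, numbered 1 to 13 by paralogue group, follows the order in which they are used from anterior to posterior. In the gut the mesenchyme carries most of this code and the epithelium carries some of it, and the most posterior genes mark the hindgut and its end. The homeodomain factors Cdx1 and Cdx2, which keep the epithelium intestinal, act upstream of several Hox genes in the mouse embryo.

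Mthfd1, a cytosolic folate enzyme, did not overlap between the genotypes at its brightest probe set, with 504 ± 48.4 in Mthfd1/+ and 890 ± 56.1 in wild-type colon (SD, n = 3 each; log2 fold change -0.80, limma adjusted p = 0.121). The label of the tissue was borne out by the colonocyte gene Car1, carbonic anhydrase 1, at 15442.6 to 19083.6, and the fat-cell hormone Adipoq read 4204.1 to 6481.2. Genes of the small bowel differed widely between arrays. Fabp6, the ileal bile acid binding protein, read 382.3, 5621.6 and 727.8 in Mthfd1/+ replicates 1 to 3 and 1316.8, 5661.9 and 93.5 in wild-type replicates 1 to 3. Apoa1, an apolipoprotein of absorptive cells, read 43.0, 3949.1 and 377.9 in the Mthfd1/+ arrays and 2396.9, 7711.8 and 29.5 in the wild-type arrays. Slc10a2, the ileal bile acid uptake transporter, varied less, at 240.6, 265.2 and 170.3 in Mthfd1/+ and 300.6, 313.4 and 199.7 in wild-type arrays. Wild-type replicate 3 was thus the lowest of the 6 for Fabp6 and Apoa1, and it also stood apart in the Hox values below, so those values are given with and without it.

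Of the 31 genes, 10 were above the median probe set of the array on all 6 arrays, 4 on 1 to 5 arrays and 17 on none. The array medians lay between 156.85 and 168.25 intensity units. Where a gene had several probe sets the brightest stood for it. Where every probe set had to pass, the count on all 6 arrays was 8 in place of 10. The second probe set of Hoxb4 read 28.5 to 100.5 and passed on 0 arrays, and that of Hoxa9 passed on 2. Since probe sets differ in how strongly they bind, being above the median is not a ranking of genes by RNA amount. As a guide to what unexpressed genes can read, 16 genes of photoreceptor, lens, sperm, pituitary and kidney glomerulus reached at most 109.1 on any array. The 17 Hox genes that were above the median on no array read between 1.2 and 150.6.

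Hoxb carried the largest number of genes above the median. On all 6 arrays these were Hoxb2, Hoxb3, Hoxb4, Hoxb5, Hoxb6 and Hoxb9, that is 6 of 9 measured Hoxb genes. Hoxb2 and Hoxb3 act in hindbrain patterning, Hoxb4 expands blood stem cells when forced, and Hoxb5 takes part in the development of enteric nerves through the receptor gene Ret in the mouse. Hoxb1, the anterior end of that cluster, read 1.4 to 17.9, and Hoxb7 read 2.6 to 16.6 at its own probe set. A probe set shared by Hoxb7 and Hoxb8, which is no member because it names both, was above the median on every array, at 376.5, 437.3 and 514.2 in Mthfd1/+ and 333.1, 380.7 and 335.2 in wild-type arrays. Its signal cannot be divided between the 2 genes.

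Hoxa and Hoxd were above the median over a narrower stretch, and Hoxc was not. Hoxa5 and Hoxa9 passed on all 6 arrays, Hoxa10 on 2, and Hoxa3 and Hoxa11 on 1 each, which was wild-type replicate 3. Hoxd8 and Hoxd9 passed on 6 arrays and Hoxd10 on 5. A large deletion across the Hoxd cluster in mice removes the ileocaecal sphincter, which does not assign that effect to single Hoxd genes. None of the 6 measured Hoxc genes was above the median on any array, and their values ran from 4.0 to 123.4. Hoxc6 had 3 probe sets, whose highest array was not the same: the brightest was highest in wild-type replicate 2, at 86.7, and another in wild-type replicate 3, at 79.4. Hoxd3 and Hoxd4 shared both of their probe sets, and these read 19.3 to 123.0 without passing the median.

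The measured genes at the posterior end of the clusters were low. Of 7 measured genes with paralogue numbers 11 to 13, 0 passed on all arrays and 1, Hoxa11, passed on 1 array. Hoxd13, which patterns digits and the anal region, read 2.0, 4.0 and 2.9 in Mthfd1/+ and 4.1, 4.3 and 5.2 in wild-type arrays. Hoxd12 read 1.7 to 18.8 and Hoxc13, which acts in hair, read 4.5 to 40.2. Hoxa13, needed for the hindgut and the limb ends, read 24.6, 37.5 and 24.1 in Mthfd1/+ and 21.2, 34.0 and 68.3 in wild-type arrays. Hoxb13, known from prostate and the distal colon, read 3.7, 4.2 and 3.5 in Mthfd1/+ and 4.5, 3.3 and 48.2 in wild-type arrays. The single higher Hoxb13 value, in wild-type replicate 3, lies within the range of the genes of other tissues and below the array median.

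**Figure D1:**
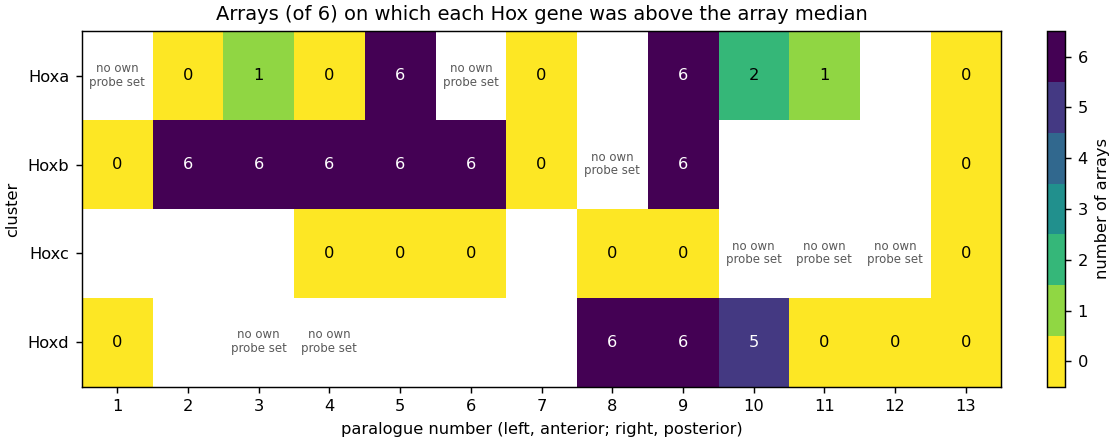
Number of arrays, of 6, on which the brightest probe set of each Hox gene was above the median of the array, by cluster (rows) and paralogue number (columns); genes without a probe set of their own are marked as such, and blank cells are positions without a gene in the mouse. Hoxb2 to Hoxb6, Hoxa5, Hoxa9, Hoxb9, Hoxd8 and Hoxd9 reached 6 arrays, and each of the 6 measured Hoxc genes had 0.

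The passing genes covered the anterior, middle and posterior classes. Of the anterior genes, with numbers 1 to 3, 2 of 6 measured were above the median on all arrays. Of the middle genes, numbers 4 to 8, 5 of 12 passed, and of the posterior genes, numbers 9 to 13, 3 of 13 passed, each with number 9. The count depends on where the bar is set. Against the 60th percentile of each array it was 4 genes in place of 10, and against the second highest gene of the other tissues it was 16.

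Array-to-array variation differed between clusters, and Hoxa varied most. The 14 genes with a mean log2 value at or above the 40th percentile of all probe sets, a mean intensity of about 93.3, were tested between genotypes, and they are also the 14 above the median on at least 1 array. For each, the highest array was set over the lowest as intensity plus 16. That ratio was 1.82 to 3.24 in the 5 Hoxa genes, 1.26 to 1.77 in the 6 Hoxb genes and 1.34 to 1.91 in the 3 Hoxd genes, against a median of 1.40 and a 95th percentile of 2.21 over all 13576 tested probe sets. Without wild-type replicate 3 the Hoxa ratios ran from 1.15 to 2.03, Hoxb from 1.26 to 1.77 and Hoxd from 1.21 to 1.91. That array was the highest in each of the 5 Hoxa genes, so leaving it out had to lower their ratios. The ratio fell to 1.38 for Hoxa5 (2.18 with it) and to 1.15 for Hoxa11 (2.13 with it). For Hoxb5 that array was neither highest nor lowest, and the ratio was 1.77 either way.

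Hoxa9, a regulator of blood progenitors as well as of position, read 278.3, 582.5 and 482.4 in the Mthfd1/+ arrays and 374.1, 519.9 and 936.7 in the wild-type arrays. Its ratio of 3.24 was higher than that of 98.6% of tested probe sets. The other tested probe set of Hoxa9 did not show the same array as highest, with 107.8, 129.1 and 163.2 in Mthfd1/+ and 105.7, 224.1 and 207.0 in wild-type arrays.

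Hoxa5, which is needed for lung and stomach development in the mouse, read 249.1, 199.5 and 194.7 in Mthfd1/+ and 175.7, 200.1 and 401.6 in wild-type arrays. Hoxa10, which shapes the uterus and the lumbar spine, read 127.3, 237.4 and 153.5 in Mthfd1/+ and 143.1, 154.1 and 317.1 in wild-type arrays. Hoxa11, also of the uterus, kidney and forearm, read 107.8, 126.5 and 116.2 in Mthfd1/+ and 126.6, 123.4 and 248.3 in wild-type arrays. In each of these 3 genes wild-type replicate 3 was the highest array and the remaining wild-type arrays lay among or near the Mthfd1/+ arrays. Hoxa11os, the antisense transcript next to Hoxa11 and no member, read 82.3, 37.5 and 104.2 in Mthfd1/+ and 105.4, 41.7 and 272.9 in wild-type arrays, again highest in wild-type replicate 3.

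The same array was highest for 7 of 9 Hoxa, 2 of 9 Hoxb, 1 of 6 Hoxc and 5 of 7 Hoxd genes. That is 15 of 31, or 48.4%, where it was highest for 22.5% of all tested probe sets. Many of those genes were dim, and among the 14 tested genes it was highest for 6, namely the 5 Hoxa genes and Hoxd8. The pattern was not limited to Hoxa. Of the 7 measured genes numbered 11 to 13, wild-type replicate 3 was highest for Hoxa11, Hoxa13, Hoxb13, Hoxd11, Hoxd12 and Hoxd13, and not for Hoxc13. Of these, all but Hoxa11 were above the array median on no array. Relative to the mean of the other 5 arrays, wild-type replicate 3 was higher by 0.65 to 1.08 on the log2 scale in the 5 tested Hoxa genes, and 97.8% of all tested probe sets had a smaller value than the lowest of them. It was lower for Hoxb3 (-0.32), Hoxb6 (-0.33) and Hoxd9 (-0.42).

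**Figure D2:**
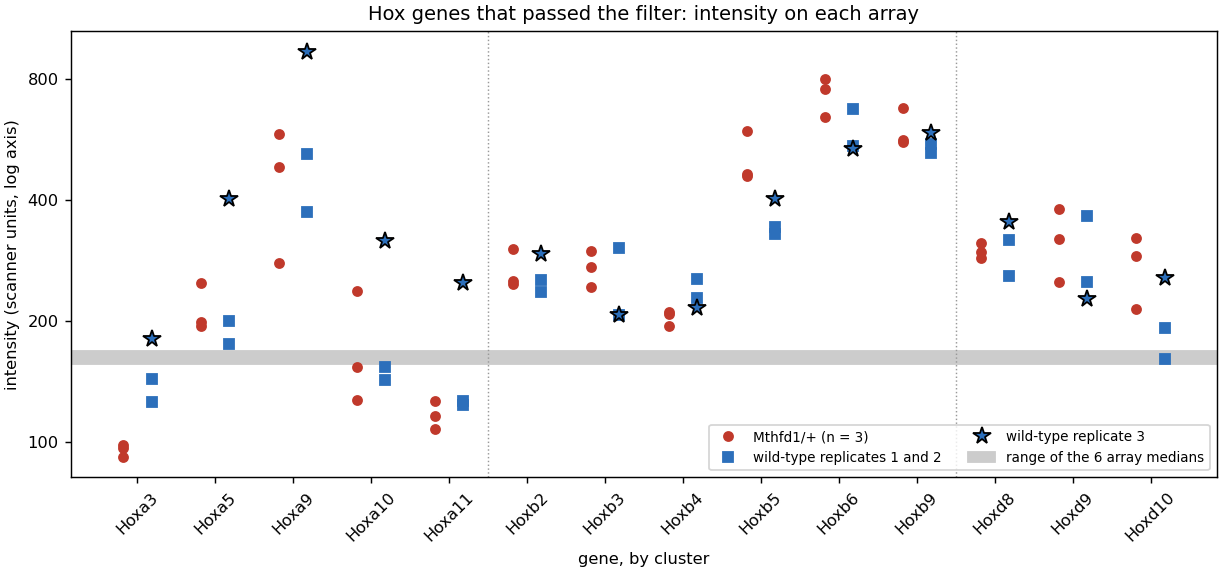
Intensity of the 14 tested Hox genes on each array, on a log axis, with the Mthfd1/+ arrays (circles) left of the wild-type arrays (squares, and a star for replicate 3) and the range of the array medians in grey. The star is the highest point in Hoxa3, Hoxa5, Hoxa9, Hoxa10, Hoxa11 and Hoxd8 and the lowest in Hoxb3, Hoxb6 and Hoxd9; heights of different genes are not comparable.

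As a summary per array, the mean centred log2 value of the 5 Hoxa genes was -0.34, 0.00 and -0.18 in Mthfd1/+ replicates 1 to 3 and -0.18, -0.07 and 0.76 in wild-type replicates 1 to 3. The 6 Hoxb genes gave 0.14, 0.03 and 0.07 in Mthfd1/+ and -0.06, -0.11 and -0.07 in wild-type arrays. The 3 Hoxd genes gave 0.13, -0.13 and 0.28 in Mthfd1/+ and 0.04, -0.31 and -0.01 in wild-type arrays. The clusters therefore did not order the arrays alike. Within Hoxa the other arrays were not ordered alike either, since Hoxa5 was second highest in Mthfd1/+ replicate 1, where Hoxa9, Hoxa10 and Hoxa11 were lowest. As a cluster mean Hoxa was lowest in Mthfd1/+ replicate 1 while Hoxb was highest there.

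Many markers of other tissue parts, but not all, were highest or lowest in wild-type replicate 3. The 9 tested ileal genes had a mean centred log2 value of -0.76, 0.83 and -0.40 in Mthfd1/+ and 0.25, 1.31 and -1.22 in wild-type arrays. The 8 smooth muscle genes gave 0.13, -0.26 and -0.02 in Mthfd1/+ and -0.09, -0.15 and 0.38 in wild-type arrays, and the summed intensity of the 10 measured ones was 36964.8 to 46331.9 in Mthfd1/+ and 37742.6 to 52725.0 in wild-type arrays. Des, the muscle filament desmin, read 1941.3, 1343.8 and 1508.5 in the Mthfd1/+ arrays and 1851.5, 1698.1 and 2903.4 in the wild-type arrays. Wild-type replicate 3 was the highest array for 6 of the 8 tested smooth muscle genes. Acta2 and Smtn were highest in Mthfd1/+ replicate 1.

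The 9 fibroblast genes gave 0.06, -0.12 and 0.06 in Mthfd1/+ and -0.14, -0.14 and 0.28 in wild-type arrays. For 6 of the 9 wild-type replicate 3 was the highest array. Dcn (-0.16) and Pdgfra (-0.43) were lower there than the mean log2 value of the other 5 arrays. In wild-type replicate 3 the median excess over the other 5 arrays was 0.39 for smooth muscle, 0.39 for fibroblast and 0.93 for the 5 Hoxa genes. Single genes ranged from 0.07 to 0.81 for smooth muscle, from -0.43 to 1.08 for fibroblast and from 0.65 to 1.08 for Hoxa, so the ranges overlapped. In Mthfd1/+ replicate 1 the ileal mean was next lowest, the smooth muscle mean next highest and the Hoxa mean lowest. In whole tissue, more cells of a type and more RNA per cell cannot be told apart, and the part of tissue make-up or of the exact site of sampling in the Hoxa values was not tested.

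**Figure D3:**
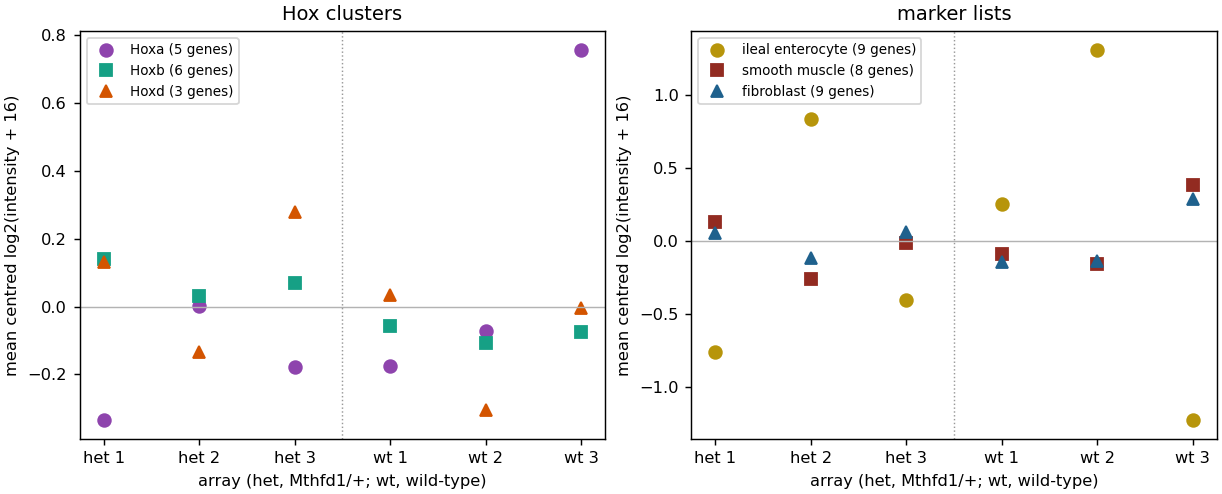
Mean centred log2(intensity + 16) on each array, Mthfd1/+ arrays left of wild-type arrays, for the tested genes of 3 Hox clusters (left panel) and for ileal, smooth muscle and fibroblast genes (right panel, wider axis). Wild-type replicate 3 is highest for Hoxa (0.76), smooth muscle (0.38) and fibroblast genes (0.28) and lowest for ileal genes (-1.22).

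The reading of posterior against middle genes depended on which posterior genes entered. The mean centred log2 value of the 6 tested posterior genes was -0.15, 0.03 and 0.05 in Mthfd1/+ and -0.13, -0.18 and 0.38 in wild-type arrays. That of the 5 tested middle genes was 0.16, -0.01 and -0.03 in Mthfd1/+ and -0.15, -0.10 and 0.13 in wild-type arrays. The tested posterior mean was thus highest in wild-type replicate 3. The genes above the median on all arrays set a different array apart. Over the genes above the median on all arrays, the mean of 3 posterior genes minus that of 5 middle genes was -0.31, 0.01 and 0.12 in Mthfd1/+ replicates 1 to 3 and 0.11, 0.01 and 0.07 in wild-type replicates 1 to 3. Mthfd1/+ replicate 1 was the lowest, and the other 5 arrays lay between 0.01 and 0.12. The 3 posterior genes did not share this low value. On that array Hoxa9 was at its lowest (278.3), Hoxb9 at its highest (677.0) and Hoxd9 (319.5) inside its range. The mean of the middle genes was at its highest there (0.16). The means were -0.06 ± 0.22 in Mthfd1/+ and 0.06 ± 0.05 in wild-type colon (SD, n = 3 each), a difference of -0.12 that lies within the spread of the Mthfd1/+ arrays and was 0.0043 without Mthfd1/+ replicate 1.

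Because 5 tested Hoxa genes shared their highest array, the 250 bases upstream of the start site are shown for 4 of them, with the untested Hoxa7 added for its matches and Hoxb4 and Hoxd9 as genes that did not follow. Sequences are from RefSeq on GRCm38.p6, 5′ to 3′ on the strand of the gene. Capitals mark matches to TTTATG or TTTATA on either strand, 2 forms of the site that Cdx proteins bind. TTTATA read on the opposite strand is TATAAA, the core of the TATA box, so those letters cannot be assigned to either.
Hoxa5 (chr6:52204588-52204837, minus strand): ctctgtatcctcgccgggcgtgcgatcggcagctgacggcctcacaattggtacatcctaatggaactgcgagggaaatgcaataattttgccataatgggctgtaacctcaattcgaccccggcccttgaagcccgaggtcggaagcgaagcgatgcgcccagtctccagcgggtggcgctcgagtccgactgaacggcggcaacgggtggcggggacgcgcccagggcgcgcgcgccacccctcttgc
Hoxa7 (chr6:52218574-52218823, minus strand): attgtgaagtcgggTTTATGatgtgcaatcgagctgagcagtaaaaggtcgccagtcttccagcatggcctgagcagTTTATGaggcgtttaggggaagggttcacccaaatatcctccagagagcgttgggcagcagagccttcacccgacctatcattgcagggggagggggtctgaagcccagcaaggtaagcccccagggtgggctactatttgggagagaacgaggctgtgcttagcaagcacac
Hoxa9 (chr6:52227371-52227620, minus strand): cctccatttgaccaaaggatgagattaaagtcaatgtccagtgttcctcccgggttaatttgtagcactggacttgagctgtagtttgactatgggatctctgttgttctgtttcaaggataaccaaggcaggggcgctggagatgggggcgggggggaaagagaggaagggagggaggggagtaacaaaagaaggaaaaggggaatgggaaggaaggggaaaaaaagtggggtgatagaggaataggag
Hoxa10 (chr6:52234940-52235189, minus strand): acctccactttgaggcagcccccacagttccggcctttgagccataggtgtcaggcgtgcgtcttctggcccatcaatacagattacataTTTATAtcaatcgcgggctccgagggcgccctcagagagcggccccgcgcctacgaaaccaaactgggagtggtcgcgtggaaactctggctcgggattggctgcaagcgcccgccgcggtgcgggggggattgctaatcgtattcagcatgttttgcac
Hoxa11 (chr6:52245811-52246060, minus strand): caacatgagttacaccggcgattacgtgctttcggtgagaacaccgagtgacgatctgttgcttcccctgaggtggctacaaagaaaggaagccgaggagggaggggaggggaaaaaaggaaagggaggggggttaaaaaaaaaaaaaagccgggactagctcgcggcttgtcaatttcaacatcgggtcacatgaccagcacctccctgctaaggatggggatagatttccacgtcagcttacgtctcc
Hoxb4 (chr11:96318017-96318266, plus strand): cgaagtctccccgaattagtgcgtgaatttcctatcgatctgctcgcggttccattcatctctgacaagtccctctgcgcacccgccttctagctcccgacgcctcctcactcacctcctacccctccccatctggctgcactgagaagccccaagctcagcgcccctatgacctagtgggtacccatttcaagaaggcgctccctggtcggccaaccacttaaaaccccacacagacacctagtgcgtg
Hoxd9 (chr2:74697513-74697762, plus strand): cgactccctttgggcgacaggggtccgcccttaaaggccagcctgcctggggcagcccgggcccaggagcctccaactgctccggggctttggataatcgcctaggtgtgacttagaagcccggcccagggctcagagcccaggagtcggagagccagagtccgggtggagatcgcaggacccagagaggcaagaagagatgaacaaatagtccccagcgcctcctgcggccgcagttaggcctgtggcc
Of the sequences shown, Hoxa7 holds 2 matches, starting 236 and 173 bases before the start, and Hoxa10 holds 1, 160 bases before. The windows of Hoxa3, the other tested Hoxa gene, and of a further Hoxa10 start, both not shown, held none. In all, 7 of 24 Hox windows, 29.2%, held a match, and so did 20.9% of 32851 windows of that length over all genes. The matching windows not shown lay outside Hoxa, at Hoxb8, Hoxd3, Hoxd4, Hoxd11 and Hoxd13. Among the tested Hoxa genes only Hoxa10 had a match. Any part of Cdx proteins in the Hoxa values was not tested. The GC content was 64.8% for Hoxa3, 63.6% for Hoxa5, 54.8% for Hoxa7, 49.6% for Hoxa9, 59.2% for this start of Hoxa10 and 52.0% for Hoxa11, against a median of 52.4% over all windows. A match is a run of letters and not a shown binding site. On the arrays Cdx2 read 2483.3, 2673.5 and 2984.9 in Mthfd1/+ and 2987.1, 3059.8 and 2725.7 in wild-type arrays, and Cdx1 read 1192.2, 1056.3 and 1221.9 in Mthfd1/+ and 1162.9, 1061.8 and 945.5 in wild-type arrays. Wild-type replicate 3 was the lowest array for Cdx1 and inside the range of the others for Cdx2.

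Between genotypes, no Hox gene passed the test. Of 15 tested Hox probe sets for 14 genes, 0 had a limma adjusted p under 0.05 (lowest 0.685), and over all 13576 tested probe sets the share called was 0%. At an unadjusted p under 0.05 there were 3 of 15, or 20.0%, against 5.69% of all tested probe sets. These were Hoxb5 and Hoxb6, higher in Mthfd1/+ colon (3.12% of all probe sets in that direction), and Hoxa3, lower (2.56%). The groups did not overlap for 3 of 15, against 10.4% over all. These were Hoxb5, higher (5.26% over all), and Hoxa3 and Hoxb4, lower (5.1% over all). With 15 probe sets, such shares move by several points with each probe set, and the members were chosen with earlier results of these data known. Of the 14 tested genes 7 were higher and 7 lower in Mthfd1/+ colon, with a median log2 fold change of -0.01, and over all tested probe sets the median was 0.00 and 50.7% were higher. The 17 genes that did not pass the filter are described by their levels only.

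Hoxb5 was the tested Hox gene with the smallest p. It read 594.1, 464.0 and 459.3 in Mthfd1/+ and 343.0, 329.5 and 401.4 in wild-type arrays, and every Mthfd1/+ value was above every wild-type value. The means were 506 ± 76.5 in Mthfd1/+ and 358 ± 38.2 in wild-type colon (SD, n = 3 each; log2 fold change 0.48, SE 0.15, limma adjusted p = 0.685). The exact two-sided permutation p was 0.1, the smallest that 3 against 3 arrays can give. Without wild-type replicate 3 the log2 fold change was 0.56.

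Hoxb6, its neighbour on chromosome 11, read 801.2, 756.9 and 643.6 in Mthfd1/+ and 545.5, 672.1 and 536.7 in wild-type arrays, which overlap. The log2 fold change was 0.32 (SE 0.14, limma adjusted p = 0.874, exact permutation p = 0.2), and 0.26 without wild-type replicate 3. The shared Hoxb8 and Hoxb7 probe set had a log2 fold change of 0.32 (SE 0.15, adjusted p = 0.885).

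Hoxb4 went the other way at its tested probe set, with 210.9, 194.6 and 208.6 in Mthfd1/+ and 227.9, 253.9 and 215.9 in wild-type arrays. These groups did not overlap (log2 fold change -0.17, SE 0.13, limma adjusted p = 0.928, exact permutation p = 0.1). The dimmer probe set of Hoxb4, below the filter, had the opposite sign (0.48), with overlapping groups.

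Hoxb2 read 252.1, 247.1 and 301.5 in Mthfd1/+ and 253.6, 236.6 and 294.4 in wild-type arrays (log2 fold change 0.03). Hoxb3 read 242.8, 273.4 and 299.3 in Mthfd1/+ and 303.8, 207.2 and 206.7 in wild-type arrays (log2 fold change 0.19). Hoxb9 read 677.0, 563.9 and 558.9 in Mthfd1/+ and 552.4, 525.0 and 587.7 in wild-type arrays (log2 fold change 0.11). All 3 overlapped between the genotypes. With 1 array left out Hoxb3 ran from 0.10 to 0.36, the highest without wild-type replicate 1, and Hoxb9 from 0.017, without Mthfd1/+ replicate 1, to 0.15. With all arrays, 5 of the 6 tested Hoxb genes were positive; the median over the 6 was 0.15.

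Hoxa3, needed for thymus and parathyroid in the mouse, was the tested Hoxa gene with the smallest p. It read 96.7, 92.0 and 98.4 in Mthfd1/+ and 143.7, 125.9 and 180.8 in wild-type arrays, and every Mthfd1/+ value was below every wild-type value. The means were 95.7 ± 3.31 in Mthfd1/+ and 150 ± 28.0 in wild-type colon (SD, n = 3 each; log2 fold change -0.56, SE 0.18, limma adjusted p = 0.709, exact permutation p = 0.1). Without wild-type replicate 3 it was -0.43 (limma adjusted p = 0.650). The other probe set of Hoxa3 read 94.0, 109.8 and 82.0 in Mthfd1/+ and 60.7, 78.8 and 98.0 in wild-type arrays, a log2 fold change of 0.24 and thus of opposite sign. All Mthfd1/+ values of Hoxa3 were below the median and within reach of the genes of other tissues.

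All 5 tested Hoxa genes were negative (median -0.39), and this depended on wild-type replicate 3. Hoxa9 was -0.39 (SE 0.34), and -0.04 without that array. Hoxa11 was -0.39 (SE 0.25), and -0.09 without it. Hoxa5 was -0.17 and Hoxa10 was -0.18 with all arrays, and both were positive without it, at 0.17 and 0.16. The limma adjusted p of these 4 genes lay between 0.916 and 0.972. The median over the 5 genes was -0.04 without that array, and 3 of 5 remained negative.

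Among dim Hoxa genes, Hoxa4 read 4.1, 8.3 and 1.7 in Mthfd1/+ and 14.1, 31.9 and 28.2 in wild-type arrays at 1 probe set and 8.9 to 15.9 in Mthfd1/+ and 12.1 to 15.2 in wild-type arrays at the other. The groups did not overlap at the first, as for 11.1% of all probe sets, tested or not, and overlapped at the second. Hoxa2 read 71.7, 68.6 and 50.6 in Mthfd1/+ and 56.4, 100.6 and 150.6 in wild-type arrays, and Hoxa7 read 52.6, 64.6 and 144.8 in Mthfd1/+ and 66.6, 80.7 and 144.7 in wild-type arrays. Both overlapped between the genotypes.

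Of the Hoxd genes, Hoxd10 read 291.1, 215.0 and 322.5 in Mthfd1/+ and 192.0, 161.2 and 255.9 in wild-type arrays. The groups overlapped (log2 fold change 0.42, SE 0.20, limma adjusted p = 0.896), and the fold change was 0.59 without wild-type replicate 3. Hoxd9 read 319.5, 250.2 and 380.2 in Mthfd1/+ and 366.1, 250.7 and 226.6 in wild-type arrays (log2 fold change 0.17, and 0.04 without wild-type replicate 3). Hoxd8 read 297.5, 287.3 and 312.1 in Mthfd1/+ and 317.5, 259.5 and 353.3 in wild-type arrays (log2 fold change -0.04, and 0.05 without wild-type replicate 3).

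**Figure D4:**
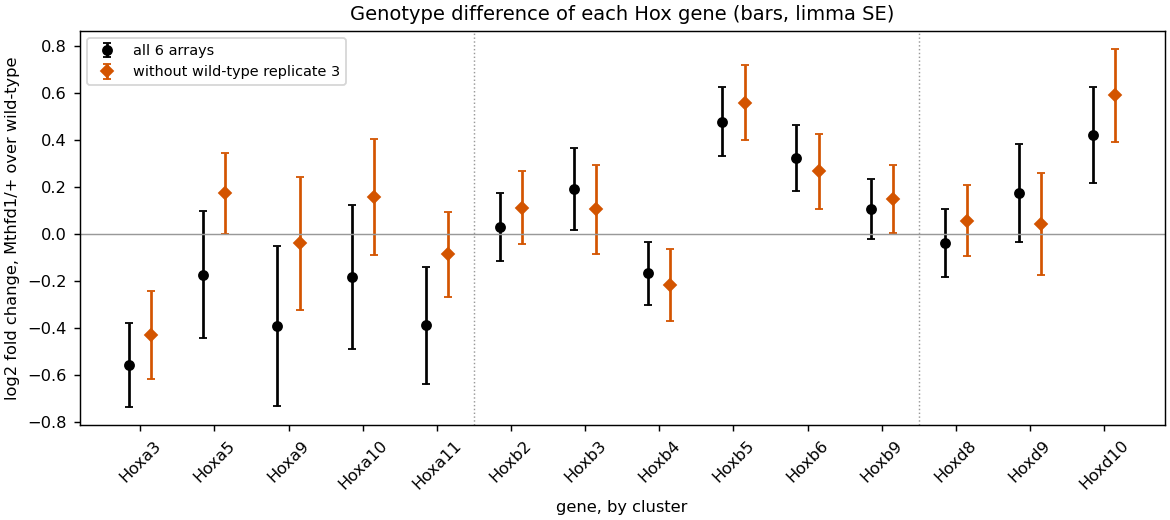
Log2 fold change of Mthfd1/+ over wild-type colon for the 14 tested Hox genes, with limma SE as bars, from all 6 arrays (circles) and without wild-type replicate 3 (diamonds). Hoxa5, Hoxa10 and Hoxd8 change sign without that array, Hoxa9 and Hoxa11 move close to 0, and Hoxa3, Hoxb5 and Hoxd10 keep their direction.

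Partners and regulators of Hox genes did not pass the test either. Of the Pbx, Meis and Pknox cofactors, which bind DNA beside Hox proteins, 5 of 8 measured genes were tested, 0 were called and the median log2 fold change was 0.06. Meis1 read 164.4, 172.1 and 146.5 in Mthfd1/+ and 152.9, 153.4 and 104.0 in wild-type arrays (log2 fold change 0.23), Meis2 had 0.18 and Pbx2 had -0.08. Of the genes next to the clusters or in the related ParaHox cluster, Cdx1 (0.13) and Cdx2 (-0.11) passed the filter, and 7 others, among them Cdx4, Pdx1, Evx1 and Evx2, did not.

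Polycomb and trithorax proteins keep Hox genes silent or active, and 13 of 16 measured members were tested with 0 called and a median log2 fold change of 0.07. Bmi1, a core Polycomb protein that represses Hox genes, read 836.4, 801.6 and 828.8 in Mthfd1/+ and 731.0, 538.5 and 655.7 in wild-type arrays. These groups did not overlap (log2 fold change 0.36, limma adjusted p = 0.808), as for 10.4% of all tested probe sets (5.26% with Mthfd1/+ higher). Ezh1 had 0.22 and Phc2 had 0.14. Of 6 tested retinoid and signalling genes 0 were called and the median was -0.06, with Ihh at 0.20, Rarg at -0.27 and Rxra at -0.16. Of 3 tested gut position factors 0 were called and the median was -0.03, with Gata6 at -0.09, Nkx2-3 at -0.01 and Foxf1 at -0.03.

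Across marker lists of the cell types a colon sample can hold, 0 genes were called. The median log2 fold change was -0.25 for ileal, 0.03 for colonocyte, -0.02 for epithelial, -0.04 for smooth muscle, -0.04 for fibroblast, 0.11 for enteric neuron and glia, -0.06 for adipocyte and 0.73 for leukocyte genes. All 4 tested leukocyte genes were higher in Mthfd1/+ colon, among them Ptprc (log2 fold change 0.86, adjusted p = 0.603), Itgax (0.60, adjusted p = 0.661) and Cd3d (0.92, adjusted p = 0.734) in limma. Leukocytes can express Hoxa and Hoxb genes, and their part in the Hox values was not tested. Uchl1, a neuronal hydrolase, had 0.26, Tubb3, a neuronal tubulin, 0.22, and Sox10, a factor of enteric glia, -0.25.

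Of the 8 tested smooth muscle genes 3 had positive log2 fold changes, Smtn (0.27), Myh11 (0.05) and Acta2 (0.04). Des (-0.40), Cnn1 (-0.34) and Actg2 (-0.30) had the smallest p of the list, and in all 3 wild-type replicate 3 was the highest array; without it Des was at -0.17 and Cnn1 at -0.08. The matrix genes Postn (0.16), Dcn (0.16) and Col1a1 (-0.16) did not share a sign. In the epithelium the keratin Krt18 was at -0.26, Krt8 at -0.08 and the cadherin Cdh1 at -0.14. Of the colonocyte genes, the sodium channel subunit Scnn1a was at -0.30, the chloride exchanger Slc26a3 at -0.24 and the adhesion molecule Ceacam1 at 0.15. Of the 9 tested ileal genes 3 were positive, Fabp6 (0.34), Apob (0.08) and Fabp2 (0.03), and among the negative ones were Slc5a1 (-0.35), Enpep (-0.34) and Slc10a2 (-0.25). The fat-cell genes Adipoq and Fabp4 were at -0.09 and -0.03.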

How the data were processed

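Total RNA was measured on 6 mouse expression arrays, 3 per genotype. The authors deposited 1 linear intensity for each probe set on each array. GCOS is named in the submitters' processing notes, with version and settings not given in the sources used here. From the values, the mean of each array without the top and bottom 2% of probe sets was about 500, so arrays share 1 scale and a change in total RNA is not measurable. The number of arrays limits the precision. Of 22690 probe sets 64 controls were left out. Names came from the platform annotation, in which 20380 probe sets had 1 symbol, 691 several and 1555 none, and matching by gene number to the GRCm38.p6 table changed 0 Hox symbols.

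Intensities entered as log2(intensity + 16), which understates changes of dim genes. Array medians of log2 values differed by 0.09, under the bound of 0.3, and no further scaling was applied. The test took in the 13576 probe sets at or above the 40th percentile of mean log2 value. It was limma's moderated linear model (version 3.58.1, R 4.3.3; lmFit, then eBayes with a trend), two-sided, and p was adjusted by Benjamini-Hochberg at a threshold of 0.05. Permutation tests were exact and two-sided, and p over single genes was not adjusted. Steps were tested on simulated data. The members, lists and rules were chosen with earlier results of these data known. Named were Mthfd1, every Hox gene above the median on 1 array or more, or with an unadjusted p under 0.05 or separate groups, those whose probe sets disagreed, and, from every list, at most 3 genes with the lowest p. Fabp6, Apoa1 and Slc10a2 were named to read the arrays. Other genes, such as Car1 and the positive ileal and muscle genes, and further Hox members were named after their values were seen. Alternatives varied the scaling, the pseudocount, the filter, the variance estimate, weights for arrays, the replicate block, the choice of probe set, the bar for levels and each array left out.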

Additional observations from a re-analysis of the deposited data

How the results depend on the processing

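With all 6 arrays 0 probe sets passed over all genes, and 772 had an unadjusted p under 0.05. There were 8 with robust variance, 4 with array weights and 0 to 39 with 1 array left out (39 without Mthfd1/+ replicate 1, 2 without wild-type replicate 3). No Hox probe set was among them under any of these settings, and 2 to 4 Hox probe sets had an unadjusted p under 0.05. The median log2 fold change of Hox genes, -0.01 with the filter, was -0.17 without it, when dim genes enter, and -0.07 to 0.11 with 1 array left out. The number of genes above the array median on all arrays was 4 with the bar at the 60th percentile and 14 at the 40th percentile. It was 16 against the second highest gene of other tissues and 8 where every probe set of a gene had to pass. With 1 array left out it was 10 to 11. Posterior minus middle, Mthfd1/+ minus wild-type, was -0.21 to 0.0043 with 1 array left out. Without wild-type replicate 3, Hoxa5 (0.17), Hoxa10 (0.16) and Hoxd8 (0.055) changed sign, and Hoxb2 was -0.058 without Mthfd1/+ replicate 3 and -0.04 without wild-type replicate 2. With 1 array left out, Hoxa5 ran from -0.39 to 0.17, Hoxa10 from -0.42 to 0.16, Hoxb2 from -0.058 to 0.11 and Hoxd8 from -0.16 to 0.055. The cause was not tested.

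Whether the replicate numbers pair the arrays cannot be settled from 3 arrays per genotype. Deviations of same-numbered arrays correlated at r = -0.12, 0.49 and 0.04 across probe sets, and the 0.49 of replicate 2 was the highest of any pair. Mthfd1/+ replicate 1 correlated best with wild-type replicate 3 (0.42). With the replicate block 0 probe sets passed, 921 had an unadjusted p under 0.05, and 4 of these were Hox probe sets. The file holds no background or detection values, so whether a dim Hox gene was expressed cannot be read from it.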
